A study of Mus musculus with 12 samples.

Results

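The genes for the proteins of the cytosolic ribosome were described in mouse skin across 12 RNA-seq libraries. Members were the rows of the expression table whose symbol starts with Rpl or Rps and a digit, leaving out symbols that contain -ps or end in rt, l1 or p. The rule uses names only and took 92 of the 25070 genes in the table. Of these, 73 encode ribosomal proteins proper, 43 of the large subunit and 30 of the small subunit. The pattern also took 5 paralogs (Rpl3l, Rpl39l, Rpl36al, Rps27l and Rps4l), Rps19bp1, and Rpl32l, whose name is that of a retrocopy. It took 9 kinase genes named Rps6k too, called S6 kinases here by name only. It took 3 genes that RefSeq lists as pseudogenes (Rpl6l, Rps3a2 and Rps3a3), so the label "intact" does not hold for every member. The GENCODE annotation also types Rpl32l as a processed pseudogene and Rps4l as a transcribed processed pseudogene. Rplp0, Rpsa and other ribosomal proteins with names outside the pattern are treated as a pathway list.

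A ribosome joins a small subunit, which reads the mRNA, to a large subunit, which makes the peptide bond, and each holds ribosomal RNA and many proteins that are needed in matched amounts. The mRNAs for these proteins are among the most abundant in any cell, and most start with a run of pyrimidines, the terminal oligopyrimidine tract, through which the kinase mTORC1 controls their translation. Skin renews its epidermis and hair throughout life, and dividing cells are known for a high output of ribosomal proteins. Ribosomal protein genes are also the main source of processed pseudogenes in mammals, copies of an mRNA put back into the genome, and short reads from gene and copy can be hard to tell apart.

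The series measured RNA in skin biopsies of mice, and day 4 after attachment is given for all 12 libraries, the naive ones included. The labels name repeated exposure to ticks only for the groups 2x and 3x. The groups were naive skin (n = 2), a 1st exposure (n = 3), ticks 2x, with 3 libraries, ticks 3x, also with 3, and skin labelled saliva immune (n = 1). The sources used here do not give strain, sex, age or tick species, and the labels name no genetic change or drug. Library titles form the series EF19-4, with 4 libraries (1st exposure and saliva immune), and EF19-6, with 8 libraries (naive, 2x and 3x). Where 1st exposure is compared with naive skin, 2x or 3x, exposure cannot be told apart from title series. The labels do not say whether libraries of a group came from separate animals, so p-values measure the spread between these libraries.

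Values are CPM (read counts scaled to the same total in each library) as deposited, and the estimated depth ran from 12.5 to 29.8 M reads per library, lowest in naive replicate 2. All 10 skin markers (keratins and dermal collagens among them) were above 3 reads in every library. Tissue makeup varied within groups. The 16 hair follicle genes summed to between 57.2 and 31685 CPM after 1st exposure, and 12 of them fell below 3 reads in at least 1 of the 12 libraries. The 14 skeletal muscle genes summed to between 2310 and 28638 CPM in 2x. In bulk tissue, fewer cells of a type and less RNA per cell cannot be told apart.

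Sequence near the start sites of 5 members is shown first, because a pyrimidine run is a feature that most of these genes had and the rule did not use. Each line gives 30 bases of RefSeq sequence (GRCm38.p6, coding strand, 5′ to 3′), with the longest run of C and T within 50 bases of the RefSeq start in capitals. Rps12 (chr10:23787181-23787210, minus strand), Rpl41 (chr10:128549119-128549148, minus strand) and Rpl10a (chr17:28328572-28328601, plus strand) passed a test below. Rps24 (chr14:24490711-24490740, plus strand) followed Rps12 most closely among members. Rps3 (chr7:99483739-99483768, minus strand) is shown as a member without a long run in this window. Counted from the RefSeq start, with negative values upstream, the run begins at 8 in Rps12, 40 in Rpl41, 17 in Rpl10a, -37 in Rps24 and -47 in Rps3. The printed bases include the RefSeq start itself only for Rps12, and a run away from it is not shown to be the tract at the end of the mRNA.
Rps12: caccgccggCCTTTTCCCCTgccgccgccg
Rpl41: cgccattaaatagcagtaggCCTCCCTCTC
Rpl10a: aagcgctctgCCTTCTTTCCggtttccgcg
Rps24: agcggTCCTCTTTTCCTCCTCTCCagctcc
Rps3: cgcaaaacttcaTTTCCCatgcaaaacttc

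Of the 73 ribosomal protein genes, 54 had a start in the RefSeq table, and 47 of those (87.0%) had a run of at least 8 pyrimidines within 50 bases on either side. Among all 27025 genes with a start the share was 39.3%, and among 7 S6 kinases 1 had such a run. The longest run had a median length of 11 bases in the ribosomal protein genes and 7 bases over all genes. The letters CTTTT stood in the coding strand of the window in 24.1% of the ribosomal protein genes and in 12.6% of all genes, and their reverse complement AAAAG in 7.41% and 12.4%. A run of pyrimidines can contain CTTTT, so the 2 counts overlap, and a match is a description of letters, not a site shown to act.

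The 73 ribosomal protein genes together held 2.04% and 1.61% of the CPM in the 2 naive libraries. They held 2.73%, 3.18% and 2.64% after 1st exposure, 2.91%, 2.57% and 2.25% in 2x, 2.47%, 2.14% and 2.07% in 3x, and 2.77% in the saliva immune library. Naive skin was lowest and 1st exposure highest, and no naive library reached the range of any tick-exposed group. The ranges of 1st exposure and 2x overlapped, as did those of 2x and 3x.

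The ratio between the summed rows of the 2 subunits varied little. Large subunit genes summed to 1.59 ± 0.012 times the small subunit genes in naive skin (SD, n = 2). The ratio was 1.59 ± 0.044 after 1st exposure (n = 3), 1.54 ± 0.033 in 2x (n = 3), 1.52 ± 0.018 in 3x (n = 3) and 1.49 in the saliva immune library. The groups thus differed in the summed level of both subunits while the ratio stayed between 1.49 and 1.62 in all 12 libraries.

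**Figure D1:**
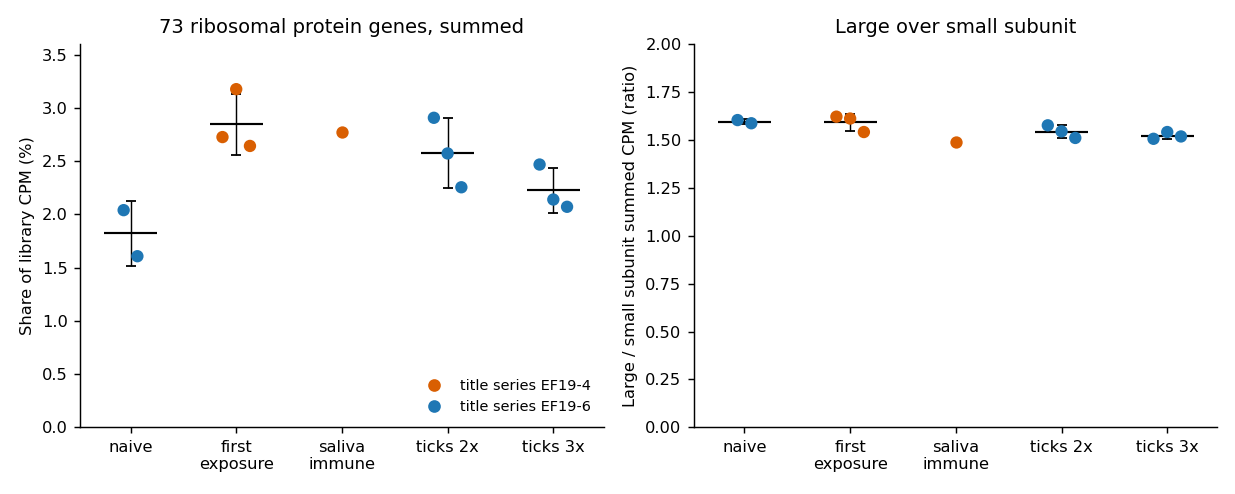
Left, share of each library's CPM held by the 73 ribosomal protein genes (percent). Right, ratio of summed large to summed small subunit CPM. Each point is a library, coloured by title series, with bars for the group mean and SD. The naive libraries have the lowest shares, 1.61% and 2.04%, while the ratio lies between 1.49 and 1.62 throughout.

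Levels between genes were compared per kb of the principal GENCODE transcript. Rpl23a was highest at 1123 CPM per kb, then Rps15 at 1001 CPM per kb and Rpl41 at 883 CPM per kb, as means over 12 libraries. Rpl41 encodes the smallest protein of the ribosome. At the other end were the pseudogene Rpl6l at 0.868 CPM per kb, the kinase Rps6ka5 at 1.63 CPM per kb and Rps2 at 1.75 CPM per kb. Rps2 encodes a core protein of the small subunit, so every ribosome needs it. Its low row stood beside the processed copy Rps2-ps10, whose row held 992 CPM on average against 1.91 CPM for Rps2 itself.

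Whether values were whole reads was measured in each library, since rows with shared sequence can divide reads. Where whole reads are counted, a CPM value is a whole multiple of what 1 read is worth in that library (0.0336 to 0.0798 CPM). Within 0.1 read, between 77.7% and 84.7% of the values of all genes from 3 to 1000 CPM were whole. For the 73 ribosomal protein genes the share was 9.72% to 28.8%, and 3 of the 73, Rps3 and Rpl8 among them, were whole in all 12 libraries, against 10761 of 17176 genes tested (62.7%). A tolerance of 0.1 read would pass 20% of evenly spread values by arithmetic. In 67 of the 73, at most 4 libraries had whole values.

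No other gene in the table shared a 50-base stretch with Rps3 or Rpl8. Against all of GENCODE, Rps3, which lines the mRNA entry, shared 2.96% of its 50-base stretches with another gene, and Rpl8, a large subunit protein, 7.86%. The median over the 73 was 56.8%. Rps12 shared 83.6%, Rpl3 85.6% and Rpl10a 88.1%. Of the other members, 8 of 9 S6 kinases, 4 of 5 paralogs and Rps19bp1 were whole in all 12 libraries. Values of most ribosomal protein rows are thus not whole reads, the summed levels above included, and the table does not say which gene the reads of rows with shared sequence came from.

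Rps12, a small subunit protein, is the member given as marker for the set (chr10:23785183-23787383, minus strand, RefSeq on GRCm38.p6). Its level was 44.0 and 35.0 CPM in naive skin. It was 102, 108 and 105 CPM after 1st exposure and 128 CPM in the saliva immune library. It was 62.0, 66.8 and 54.2 CPM in 2x, and 64.8, 57.7 and 59.6 CPM in 3x. All 4 libraries of EF19-4 lay above all 8 of EF19-6, and within EF19-6 every tick-exposed library lay above both naive ones. The ranges of 2x and 3x overlapped.

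The row of Rps12 was low beside that of a gene with nearly the same sequence. Rps12-ps3, a copy that contains 83.2% of the 50-base stretches of Rps12, averaged 361 CPM against 73.9 CPM for Rps12. Partners of a gene are the genes in the table that hold at least 10% of its 50-base stretches. Most are copies, but some are not, such as Nphs1 (nephrin) for Rps12, which holds 34.2% of its stretches and averaged 0.706 CPM. Rps12 and its 10 partners summed to between 488 and 609 CPM in EF19-4 and between 249 and 495 CPM in EF19-6, so the sums overlapped where the row of Rps12 did not. Rps12 took 17.8% to 21.6% of that sum in EF19-4 and 12.5% to 16.9% in EF19-6. The share itself therefore separated the title series without overlap.

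**Figure D2:**
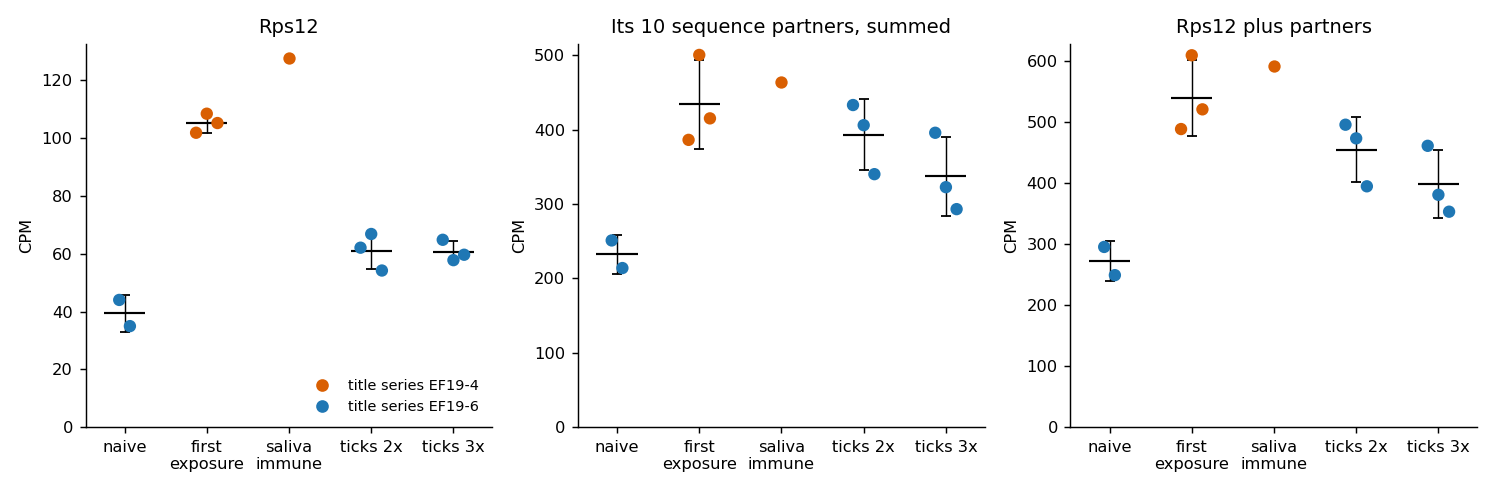
CPM of Rps12, of its 10 partners summed, and of both together, by group. Each point is a library, coloured by title series, with bars for the group mean and SD. The Rps12 row separates the title series, while the sums of EF19-4 (488 to 609 CPM) overlap those of EF19-6 (249 to 495 CPM).

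Comparing 1st exposure with naive skin asks what a first infestation changes. All 73 ribosomal protein genes had a log2 fold change above 0, with a median of 0.69 for the large and 0.67 for the small subunit, beside 0.08 over all 17064 genes tested. Over the 92 members the median was 0.65 and 87 lay above 0. Rps12 was the only member past the threshold (limma, log2 fold change 1.40, SE 0.14, adjusted p = 0.0214), where 0.0117% of all genes were called. That call was lost when only these groups were fitted (adjusted p = 0.273) or when Rps12 was summed with its partners (log2 fold change 0.98, adjusted p = 0.0774). Without 1st exposure replicate 3, 11 of 91 members were called, all higher, beside 300 higher and 300 lower of 16943 genes. None was called when any single one of these was left out: a naive library, or replicate 1 or 2 of 1st exposure, of 2x or of 3x. The log2 fold change of Rps12 stayed between 1.24 and 1.56 over all fits with a library left out.

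Libraries did not overlap, with 1st exposure higher, for 76 of 92 members, against 21.0% of all genes. The members with the largest differences were Rpl41, Rps12 and Rps23, a protein near the decoding centre. Rpl41 stood at 311 and 204 CPM in naive skin and at 684, 969 and 654 CPM after 1st exposure (log2 fold change 1.58, SE 0.26, adjusted p = 0.0646, limma). Rps23 stood at 22.9 and 17.1 CPM in naive skin and at 68.1, 60.8 and 32.8 CPM after 1st exposure. Its highest values were in the 2 follicle-rich libraries of 1st exposure, replicates 1 and 2. However, its row held only 7.48% of the CPM of itself and its 8 partners together. That sum was 375 and 286 CPM in naive skin and 514, 587 and 522 CPM in replicates 1, 2 and 3 of 1st exposure. In the sum replicate 3 thus lay above replicate 1.

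The lowest differences in the same comparison were those of Rps6ka5 (log2 fold change -0.52), Rps6ka2 (-0.49) and Rpl3l (-0.44), none of which passed the test. The first is a nuclear stress kinase, the second a kinase of the RSK family, and the third the muscle form of Rpl3. All 12 cell cycle genes lay above 0, as did 57.9% of all genes, with overlapping sums of 315 to 434 CPM in naive skin and 431 to 797 CPM after 1st exposure. All 16 hair follicle genes lay above 0 too, summing to between 22.0 and 8338 CPM in naive skin. All 10 adipocyte genes lay below 0, with sums of 6870 to 7602 CPM in naive skin and 2283 to 3602 CPM after 1st exposure, without overlap. No gene of these lists was called. Their part in the result was not tested, and the 2 groups also differ in title series.

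Within title series EF19-6, ticks 2x and naive skin were compared. No member passed the threshold (limma), where 0.0352% of all genes did, although 57 of 92 had an unadjusted p under 0.05 and 66 of 92 did not overlap on the higher side, against 14.7% of all genes. The median log2 fold change was 0.48 over the members and 0.01 over all genes. Rps23 (0.96, SE 0.35), Rpl41 (0.95, SE 0.26) and Rpl39l (0.80, SE 0.25) were highest. Summed with its partners, Rps23 stood at 375 and 286 CPM in naive skin and at 530, 502 and 431 CPM in 2x. Rpl39l, a paralog of the small large-subunit protein Rpl39, stood at 3.43 and 4.87 CPM in naive skin and at 7.23, 8.66 and 7.82 CPM in 2x, without overlap. Rpl3l (-1.75), Rps6ka2 (-1.41) and Rps6ka5 (-0.42) were lowest. Summed with its partner, Sod2, Rps6ka2 stood at 178 and 144 CPM in naive skin and at 98.4, 134 and 194 CPM in 2x, with overlap. Without naive replicate 2 the median was 0.32. Mast cell genes summed to 194 to 257 CPM in naive skin and 455 to 559 CPM in 2x, and adipocyte genes to 6870 to 7602 and 4416 to 6020 CPM, both without overlap and with none called. All 14 skeletal muscle genes lay below 0. Their part was not tested.

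Ticks 3x against naive skin, which uses the same 2 naive libraries, gave smaller values. No member was called (limma), beside 0.00586% of all genes, with 10 at an unadjusted p under 0.05. The median was 0.26 over the members and 0.02 over all genes, and 38 of 92 did not overlap on the higher side, against 15.5% of all genes. Rps12 (0.62, SE 0.14), Rpl41 (0.59, SE 0.26) and Rpl34 (0.50, SE 0.18) were highest. Rpl3l (-0.86), Rps6ka2 (-0.74) and Rps29 (-0.41) were lowest. The row of Rps29 held only 3.69% of the CPM of itself and its 3 partners together. That sum was not lower in 3x, at 252 and 196 CPM in naive skin and 304, 253 and 258 CPM in 3x. Without naive replicate 2, the shallowest library and the one lowest in ribosomal protein genes, the median was 0.09, and without naive replicate 1 it was 0.42. The 12 cell cycle genes all lay below 0 in this comparison. Sums did not overlap for mast cell genes (263 to 711 CPM in 3x), T cell genes (14.2 to 17.4 CPM in naive skin, up to 52.2 CPM in 3x) and erythrocyte genes (161 to 175 CPM, 350.3 to 507 CPM). None of these genes was called, and their part was not tested.

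In 3x against 2x no member passed the threshold, nor did any other gene (0.00%), while 6 members and 878 of all genes had an unadjusted p under 0.05 (limma). The median was -0.22 over the members and 0.03 over all genes, with 82 of 92 members below 0. Libraries did not overlap, with 3x lower, for 14 of 92 members, against 4.41% of all genes. Rps13, Rps23 and Rpl39l were lowest. Rps13, a small subunit protein, stood at 12.5, 15.7 and 13.9 CPM in 2x and at 6.88, 8.31 and 2.88 CPM in 3x. The difference was -1.19 on the log2 scale (SE 0.43, adjusted p = 0.894, limma). Its groups did not overlap, but 5 genes in the table shared stretches with it, and its values were whole in 3 of 12 libraries. The row of Rps13 held only 4.09% of the CPM of itself and its 5 partners together. That sum stood at 287, 251 and 238 CPM in 2x and at 243, 203 and 199 CPM in 3x, with overlap. Rps23 had -0.83 and Rpl39l -0.78, while Rpl3l (0.88) and Rps6ka2 (0.67) were highest. Summed with its partners, Rps23 stood at 530, 502 and 431 CPM in 2x and at 471, 417 and 392 CPM in 3x, with overlap. Without 2x replicate 1 the median was -0.13. The cell cycle genes summed to between 271 and 590 CPM in 2x and between 171 and 383 CPM in 3x, and their part was not tested.

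Repeat exposure (2x and 3x pooled, n = 6) was set against 1st exposure (n = 3), which asks whether a later infestation differs from the first. The members called were Rpl3, Rps12 and Rpl10a, all lower after repeat exposure, where 0.820% of all genes were called. Rpl3, a large subunit protein beside the peptidyl transferase centre, stood at 30.7, 32.5 and 31.0 CPM after 1st exposure. In repeat exposure it ran from 11.8 to 15.7 CPM (log2 fold change -1.11, SE 0.15, adjusted p = 0.0249, limma). Rps12 had the same adjusted p with a log2 fold change of -0.78 (SE 0.10), and Rpl10a, of the stalk beside the exit site, had -0.79 (SE 0.15, adjusted p = 0.0479).

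The median over the members was -0.26, beside -0.06 over all genes, and 13 of 92 did not overlap on the lower side, against 5.17% of all genes. Summed with partners, none of the 92 was called, and Rps12 had a log2 fold change of -0.34 (adjusted p = 0.220). The calls also depended on single libraries: no member, and no other gene, was called when 1st exposure replicate 2, 2x replicate 3, or either the first or second library of 3x was left out. In those fits Rps12 kept a log2 fold change of -0.75 to -0.80, with adjusted p from 0.0615 to 0.133 (limma). Without 1st exposure replicate 3, 11 of 91 members were called, all lower, beside 1049 higher and 1211 lower of 16943 genes. Adipocyte genes lay above 0 for 10 of 10, with 2 called, and summed to 2283 to 3602 CPM after 1st exposure, 4416 to 6020 CPM in 2x and 4543 to 9935 CPM in 3x, without overlap. Mast cell genes summed to 139 to 425 CPM after 1st exposure, below 2x (455 to 559 CPM) but overlapping 3x. All 12 cell cycle and all 16 hair follicle genes lay below 0, with none called. The part of these in the result was not tested.

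**Figure D3:**
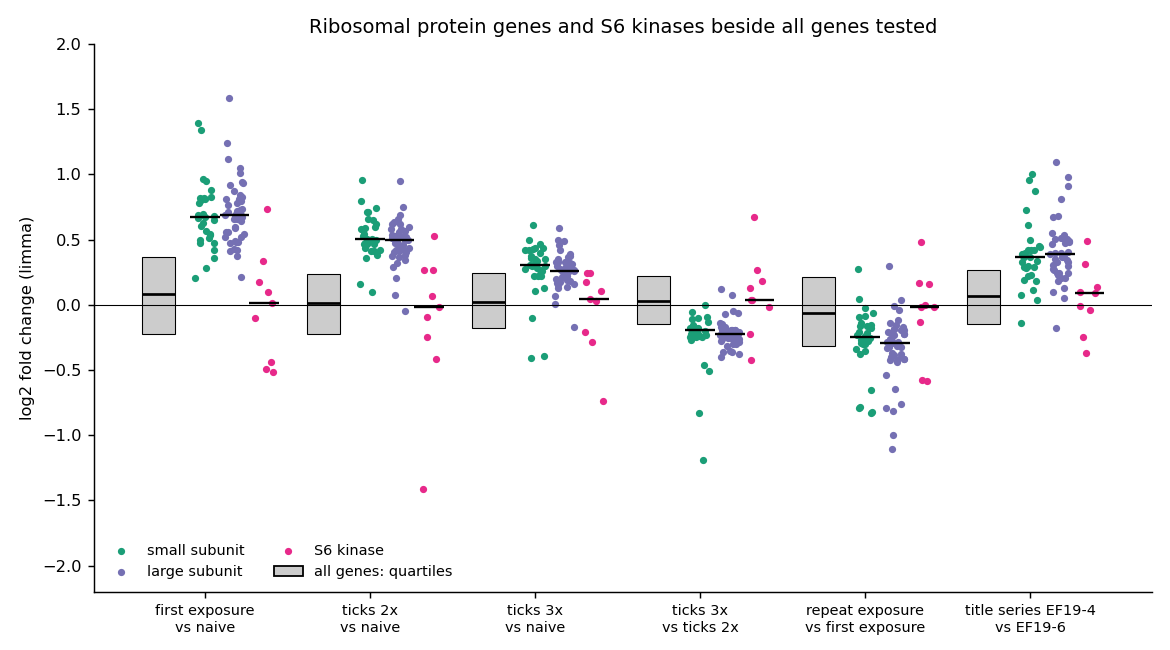
Log2 fold changes from limma for small subunit, large subunit and S6 kinase genes in the 6 comparisons, each point a gene and each bar a median. Grey boxes give the quartiles and median of all genes tested. The medians of both subunits lie above the all-gene median in 1st exposure, 2x and 3x against naive skin (0.26 to 0.69). Single genes lie below it in 2x and 3x. The S6 kinases have medians between -0.01 and 0.09 in all 6.

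Title series EF19-4 was compared with EF19-6 over all 12 libraries. Here 10 of 92 members were called, all higher in EF19-4, where 2.86% of the 17176 genes tested were called. The same number, 10 of 92, did not overlap on the higher side, against 2.91% of all genes. The median was 0.35 over the members and 0.07 over all genes. With the 2 naive libraries left out, 7 of 92 were called, beside 244 higher and 54 lower of 17061 genes.

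The 10 were Rps3a3, Rpl3, Rps12, Rpl41, Rps2, Rpl26, Rps16, Rpl32l, Rpl10a and Rpl10. Rpl10, which joins the large subunit late in its assembly, stood at 122, 137, 179 and 151 CPM in EF19-4 and between 81.2 and 101 CPM in EF19-6 (log2 fold change 0.67, SE 0.11, adjusted p = 0.00818, limma). Rps16, a small subunit protein at the decoding site, stood at 66.2, 67.7, 71.6 and 69.4 CPM in EF19-4 and between 27.4 and 53.0 CPM in EF19-6 (0.87, SE 0.15). Rpl3 had the smallest adjusted p, 0.00243, with a log2 fold change of 1.10 (SE 0.12). Rps12 followed at 1.00 (SE 0.16, adjusted p = 0.00807).

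Low rows were among them. Rps2 ran from 1.65 to 4.56 CPM in EF19-4 and from 0.519 to 1.68 CPM in EF19-6, so its libraries overlapped. Rpl26, at the peptide exit, ran from 2.83 to 4.82 CPM and from 0.782 to 3.06 CPM. The retrocopy Rpl32l ran from 1.23 to 1.98 CPM and from 0.187 to 0.948 CPM, and the pseudogene Rps3a3 from 5.40 to 13.8 CPM and from 1.93 to 4.36 CPM. On the log2(CPM + 1) scale used here the fold change of such rows is understated.

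Of the 8 called ribosomal protein genes, 7 held under 20% of the CPM of themselves and their partners together. Rps2 held 0.19%, Rpl26 0.571%, Rpl3 2.55%, Rpl10a 9.37%, Rps16 14.0%, Rpl10 15.2% and Rps12 16.7%. The share of Rps12, Rpl3, Rpl10 and Rps16 was higher in each EF19-4 library than in any of EF19-6, while those of Rps2, Rpl10a and Rpl26 overlapped. For Rpl3 it was 3.35% to 3.66% against 1.54% to 2.48%. Over the 14 ribosomal protein genes with a share under 20% the median log2 fold change was 0.70, and 7 were called. Over the 50 with a share above 80% it was 0.36, and 1 was called, Rpl41, which held 99.2%. Over the 9 with a share of 20% to 80% it was 0.19, lower than in both other classes, and none was called. The classes also differed in level, with a median of 15.4 CPM under 20% and 403 CPM above 80%. The split by share was made after values were seen, and it is a description.

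Summing each member with its partners left Rpl41 as the only call (log2 fold change 0.99, SE 0.24, adjusted p = 0.0464), while the median over members stayed at 0.33. For Rpl3 the log2 fold change went from 1.10 to 0.31 (SE 0.14, adjusted p = 0.285), and for Rps12 from 1.00 to 0.54 (SE 0.18, adjusted p = 0.146). For Rps2 it went from 0.95 to 0.19 (SE 0.16, adjusted p = 0.545). For these genes a copy carried most of the sum: Rpl3-ps1 averaged 745 CPM, and its row ran from 785 to 923 CPM in EF19-4 and from 560 to 911 CPM in EF19-6.

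Small partners had higher means in EF19-4 as well. Of 151 partners of ribosomal protein genes with a mean between 0.5 and 10 CPM, 150 were higher, with a median log2 difference of 0.84. Their sum ran from 430 to 674 CPM in EF19-4 and from 164 to 269 CPM in EF19-6, without overlap. The share of whole values over all genes lay between 77.7% and 79.9% in EF19-4 and between 79.4% and 84.7% in EF19-6. The part of the division of reads in the calls above was not tested.

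**Figure D4:**
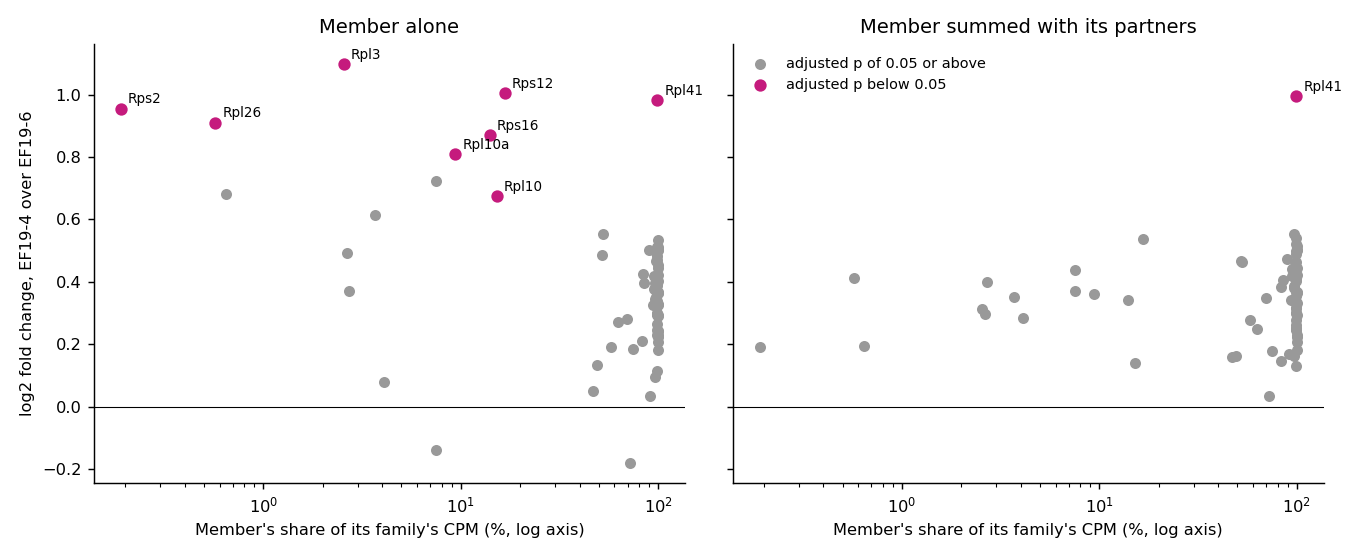
Log2 fold change of EF19-4 over EF19-6 for 73 ribosomal protein genes (vertical axis) against the gene's share of the CPM of itself and its partners (percent, log axis). Left, the gene's own row, right, the gene summed with its partners, with genes at an adjusted p below 0.05 in colour. The 8 genes called on the left include 7 with a share under 20%, and Rpl41 alone is called on the right.

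Rps3 and Rpl8, both counted in whole reads, were read next. Rps3 stood at 651, 790, 626 and 677 CPM in EF19-4 and between 377 and 711 CPM in EF19-6 (log2 fold change 0.37, SE 0.16, adjusted p = 0.240, limma). Rpl8 had a log2 fold change of 0.18 (SE 0.14, adjusted p = 0.505). Their libraries overlapped between the series. Against naive skin the same genes had 1st exposure values of 0.67 (Rps3) and 0.43 (Rpl8), with all 3 libraries above both naive ones, and neither passed the test.

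Rpl41 had the highest log2 fold change among the 50 ribosomal protein genes with a share above 80%. Its level was 684, 969, 654 and 712 CPM in EF19-4 and ran from 204 to 588 CPM in EF19-6 (log2 fold change 0.98, SE 0.24, adjusted p = 0.0478). Only 1 of its 12 values was whole, and 43.9% of its 50-base stretches recurred in 4 other genes, while its partner, Gm10076, averaged 4.40 CPM.

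Genes were then ranked by likeness to Rps12, as Pearson's r of log2(CPM + 1) over the 12 libraries, which differ in depth and title series. Among members the highest were Rps24 (0.93), Rpl39 (0.92) and Rpl36 (0.91), and the lowest Rps6ka5 (-0.56), Rps6ka6 (-0.29) and Rps6kb1 (-0.23). The median was 0.77 over 85 members with at least 5 CPM and 0.10 over 12439 other genes. Outside the rule the highest were Bc1 (0.96), a short neuronal RNA made by RNA polymerase III, Pet100 (0.93), an assembly factor of cytochrome oxidase, and Gm10260 (0.92), a copy of Rps18. Bc1 stood between 76.4 and 105 CPM in EF19-4 and between 10.9 and 40.2 CPM in EF19-6, without overlap.

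The paralogs have rows of their own, and 4 of 5 were counted in whole reads throughout. Rps4l is kept among them here, although GENCODE types it as a transcribed processed pseudogene. Rpl3l, the form of Rpl3 made in heart and skeletal muscle, had the largest SD of any member, 1.24 on the log2 scale. It stood at 86.8 and 48.6 CPM in naive skin, 40.7, 46.6 and 56.6 CPM after 1st exposure, 49.4 CPM in the saliva immune library, 10.2, 6.13 and 93.9 CPM in 2x, and 17.8, 21.7 and 111 CPM in 3x. The mean of the skeletal muscle genes was lowest in the libraries with 10.2 and 6.13 CPM and highest in the one with 111 CPM. Rpl3 stood at 15.7, 12.9 and 14.5 CPM in those libraries. However, the row of Rpl3 held only 2.55% of the CPM of itself and its 7 partners together. That sum ran from 829 to 970 CPM in EF19-4 and from 579 to 936 CPM in EF19-6. The rows of Rpl3l and Rpl3 thus do not show which gene was higher. No comparison of Rpl3l passed the test.

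**Figure D5:**
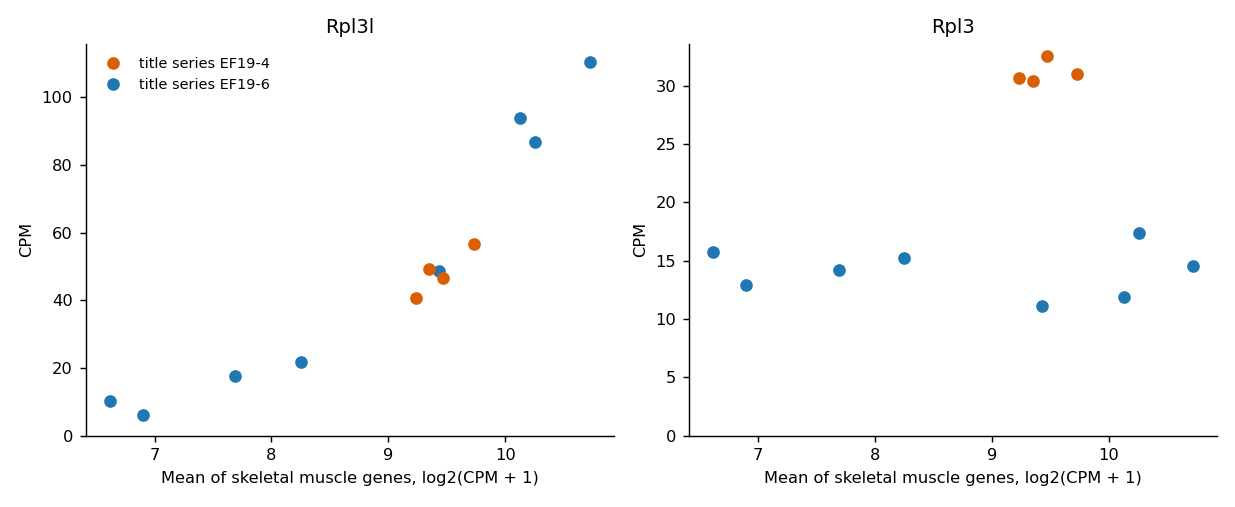
CPM of Rpl3l (left) and Rpl3 (right) against the mean of 14 skeletal muscle genes on the log2(CPM + 1) scale, each point a library coloured by title series. Rpl3l lies between 6.13 and 111 CPM, while the row of Rpl3 lies at 30.4 to 32.5 CPM in EF19-4 and 11.1 to 17.4 CPM in EF19-6. The row of Rpl3 held 2.55% of the CPM of itself and its partners, and those sums overlapped between the title series.

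The other pairs were compared per kb. Rpl36a averaged 172 CPM per kb and Rpl36al, a copy that encodes nearly the same protein, 228 CPM per kb. However, the row of Rpl36a held only 51.9% of the CPM of itself and its 2 partners, of which Rpl36a-ps2 averaged 75.6 CPM. Rpl36al had no partner, so these 2 levels do not show which gene was higher. Rps27 averaged 846 CPM per kb and Rps27l, a target of p53, 113 CPM per kb. Rpl39l averaged 7.20 CPM per kb against 338 CPM per kb for Rpl39, and Rps4l 13.7 CPM per kb against 876 CPM per kb for Rps4x. Rpl10l was not analysed here. In the title series comparison Rpl36al (log2 fold change 0.24), Rps27l (0.22), Rpl39l (0.15) and Rps4l (0.01) stood beside Rpl36a (0.49), Rps27 (0.42) and Rpl39 (0.50). Rps4x had 0.11, none of these 8 passed the test, and the differences between partners were not tested.

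Some genes varied very little. Rps6kb1, the kinase that phosphorylates ribosomal protein S6 downstream of mTORC1, had the smallest SD of any member with at least 5 CPM, 0.091 on the log2 scale. It ran from 58.7 to 72.9 CPM over the 12 libraries. Rps4x (SD 0.18), an X-linked small subunit gene, and Rpl22 (SD 0.18), which is needed in T cell development, came next. Largest after Rpl3l were Rps6ka2 (SD 0.91) and Rps13 (SD 0.68). The row of Rps6ka2, like that of Rpl3l, was lowest in 2x replicates 1 and 2 and highest in 3x replicate 3. It held only 19.4% of the CPM of itself and its partner, Sod2, which averaged 110 CPM. The row of Rps13 held 4.09% of the sum with its partners.

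The S6 kinases were described beside the ribosomal protein genes, with no test of the difference. Their median log2 fold change was 0.01 in 1st exposure against naive skin and 0.09 between the title series, and none of the 9 was called in any of the 6 comparisons (limma), with at most 1 at an unadjusted p under 0.05. Rps6kb2, the second S6 kinase of mTORC1, stood at 26.8 and 28.0 CPM in naive skin and at 52.6, 51.2 and 36.6 CPM after 1st exposure (log2 fold change 0.73, SE 0.17, adjusted p = 0.103). Rps6ka6, another kinase of the RSK family, had a log2 fold change of 0.27 (SE 0.35) in 3x against 2x. Rps19bp1, a nucleolar partner of Rps19, ran from 6.31 to 12.7 CPM.

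Other genes of the pathway were counted from lists. The 7 ribosomal proteins with other names (Rpsa, Rplp0 and others) all lay above 0 in 1st exposure against naive skin, with a median log2 fold change of 0.65, and above 0 between the title series with 0.31, and none was called. Rpsa and Rplp0, a small subunit protein and the base of the large subunit stalk, had 0.55 and 0.65 in the first of these comparisons. A list of translation factors and other genes with oligopyrimidine RNAs, among them Npm1, Hnrnpa1, Nap1l1 and the noncoding Gas5 and Snhg8, had 20 of 20 above 0 in both comparisons (medians 0.43 and 0.21), with none called. For Eef1a1, which brings tRNA to the ribosome, the level was 5913 ± 284 CPM in EF19-4 (SD, n = 4) and 5341 ± 924 CPM in EF19-6 (n = 8). For Eef2, which moves the ribosome along, it was 2316 ± 227 CPM and 2253 ± 218 CPM.

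Ribosome biogenesis genes had 25 of 26 above 0 in 1st exposure against naive skin (median 0.34), 22 of 26 in 2x (0.17) and 4 of 26 in 3x (-0.26), with none called. In 3x against 2x all 26 lay below 0 (median -0.42), again with none called, as did all 26 in repeat against 1st exposure (-0.36). Their highest members were Ncl, nucleolin, and Nop56, a core protein of box C/D particles, at 444 ± 112 and 87.6 ± 34.4 CPM in EF19-4 (SD, n = 4) and 387 ± 79.7 and 56.0 ± 11.3 CPM in EF19-6 (n = 8). So in 3x against naive skin ribosomal protein genes and biogenesis genes had medians of opposite sign, a difference that was not tested.

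Among 12 genes of mTORC1 signalling, 1 was called in the title series comparison, where 2.86% of all genes were called. It was Mlst8, a subunit of both mTOR complexes. Mlst8 stood at 24.9 ± 2.57 CPM in EF19-4 (SD, n = 4) and 17.9 ± 1.72 CPM in EF19-6 (n = 8), a log2 fold change of 0.45 (SE 0.10, adjusted p = 0.0347, limma). Eif4ebp2, which binds the cap-binding protein Eif4e, and Larp1, which binds oligopyrimidine tracts, had -0.05 and 0.07. Mitochondrial ribosomal proteins, tested for 79 of 81, had medians of 0.23 in 1st exposure against naive skin and 0.14 between the title series, with none called. Mrpl24 and Mrps25 had 0.09 and 0.15 between the title series. Of 9 tested genes for ribosome stress and quality control, 8 lay above 0 between the title series (median 0.19), with none called. Abce1, which splits ribosomes for recycling, and Zfp598, which senses collided ribosomes, both had 0.30.

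Marker lists were read beside the title series result, in which 59.0% of all genes lay above 0. Adipocyte genes had 10 of 10 below 0 and 6 called, with summed levels of 2283 to 3839 CPM in EF19-4 and 4416 to 9935 CPM in EF19-6. Cell cycle genes had 12 of 12 above 0 with none called, and summed to between 395 and 797 CPM in EF19-4 and between 171 and 590 CPM in EF19-6. All adipocyte and cell cycle markers were above 3 reads in every library. Hair follicle genes had 16 of 16 and skeletal muscle genes 14 of 14 above 0. Macrophage genes had 8 of 8, T cell genes 7 of 7, skin genes 10 of 10, mast cell genes 6 of 7 and erythrocyte genes 3 of 4 below 0, with none called in any of these lists. Their part in the ribosomal protein result was not tested. Adding the mean of the hair follicle genes to the fit called 12 members in place of 10, and 560 higher and 221 lower genes in place of 360 and 131.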

How the data were processed

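Skin biopsies gave 12 libraries. RNA was isolated with a Qiagen kit, per the labels' protocols, and STAR and Partek 8.0.19 with GRCm38.p6 are named in the submitters' processing notes. The sources used here do not give the annotation, the read length or how reads with several matches were counted. The deposited values are CPM, from which the authors left no cell at 0 (the smallest is 0.0001). From the deposited CPM, log2(CPM + 1) was fitted with limma 3.58.1 in R 4.3.3, letting the prior variance follow the mean. A gene was tested if 2 or more libraries of the fit reached 1 CPM, and p-values were adjusted over all tested genes by Benjamini-Hochberg, with a threshold of 0.05. The 4 groups with replicates shared a fit. Repeat against 1st exposure used 3 groups, and the title series used all 12 libraries. The saliva immune library entered only the last. Naive and 1st exposure have too few libraries for a precise spread. The script was tested on simulated data.

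Depth came from the spacing of low CPM values, and the floor of 3 reads allows for counting error only. Values were not whole reads for enough genes, so count tests were not run. A partner is a gene in the table whose GENCODE M21 transcripts (GRCm38) hold at least 10% of the 50-base stretches of a member's principal transcript. RefSeq exon lengths, planned for levels per kb, were not used here, and GENCODE principal transcript lengths took their place.

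Named genes were Rps12, called members (up to 10), the 3 largest rises and falls with at least 5 CPM where fewer than 3 were called, and the extremes of level per kb, of SD and of likeness to Rps12. Paralog pairs, S6 kinases and the leading genes of pathway lists were named too. Rps3 and Rpl8 were added after their values were seen, and 1 further gene is not reported here. Of the list genes, Utp4, Znf622, Gcn1 and Map3k20 had no row. Members and lists were chosen with earlier results of these data known. Alternatives were pseudocounts of 0.1 and 0.5, no filter, a filter at 5 CPM, median-of-ratios, quantile and 2 other scalings, fits of the compared groups only, array weights, a hair follicle covariate and leaving out each library. Summing members with their partners was added after the data were seen.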

Additional observations from a re-analysis of the deposited data

Results flagged for a closer look

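Of 74 values tested, each a named gene or a sum in a title series of 4 or 8 libraries, 5 had a highest or lowest library set apart from the rest by a gap that is large against the whole range (Dixon's criterion). Chance alone marks about 1 in 20 such groups. In EF19-4, 1st exposure replicate 1 was lowest for Rpl22, at 240 CPM with the next library at 273 CPM, and for Rpl39, at 220 CPM with the next at 266 CPM. In EF19-6, 2x replicate 1 was highest for Rpl26, at 3.06 CPM with the next at 1.80 CPM, and for Rps29, at 17.1 CPM with the next at 10.8 CPM. In EF19-6, 3x replicate 3 was highest for Rpl32l, at 0.948 CPM with the next at 0.438 CPM.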

How the results depend on the processing

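No paired analysis was possible because library numbers run on within a title series, and no label says that a number found in both series marks a shared animal, day or batch. Counts of members called in 1st exposure against naive skin, in repeat against 1st exposure and between the title series moved by more than 1.5 times under some settings. With only the compared groups fitted, 0 members were called in 1st exposure against naive skin. With a filter at 5 CPM, 6 of 87 were called between the title series, beside 78 higher and 58 lower of 13459 genes. Summed with their sequence partners, 0 members were called in 1st exposure against naive skin, 0 in repeat against 1st exposure and 1 between the title series. Leaving out each library in turn gave 0 to 11 members in 1st exposure against naive skin and 0 to 11 in repeat against 1st exposure. Between the title series it gave 6 to 14. The 6 came without 1st exposure replicate 1, beside 245 higher and 54 lower of 17032 genes. The 14 came without 2x replicate 1, beside 292 higher and 128 lower of 17151 genes. The median log2 fold change over members ran from 0.45 to 0.81 in 1st exposure, 0.32 to 0.65 in 2x and 0.092 to 0.42 in 3x against naive skin, with the extremes where a naive library was left out. The log2 fold change of Rps12 in 3x against 2x was near 0 and changed sign (-0.00313 with all libraries): 0.0097 with totals without the top 50 genes, and between -0.085 and 0.064 with libraries left out. It moved most, to -0.19, when Rps12 was summed with its partners. The cause of these changes was not tested, except that summing changes the rows themselves and leaving out a library leaves fewer samples. In the other 240 checks a count stayed within 1.5 times, or a median kept its sign and moved by less than 0.133, the SD between libraries of a group. Array weights did not converge in any comparison and were not used. Where a naive library was left out, the remaining one was taken to vary like the other groups. With 12.5 M reads in the shallowest library, rows such as Rpl32l and Rpl6l lie near 3 reads.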
